A study of Mus musculus with 2 samples.

Results

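Small nucleolar RNAs (snoRNAs) are short non-coding RNAs of the nucleolus, and 92 of the 1507 annotated mouse snoRNA genes were expressed in the newborn heart. The set was chosen on the measured level. A gene belonged to it when its only transcript type was snoRNA and its level was at least 1 TPM (a read count divided by transcript length and scaled to the whole library) in both libraries. The full tables list 55536 mouse genes. Membership and the levels themselves are therefore descriptions of the choice, and no test was made on them.

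The tissue was the heart of male B6CASTF1/J mice aged 4 days, the F1 offspring of C57BL/6J and CAST/EiJ. There were 2 libraries in a single group, with no treatment, no altered allele and no comparison group. Libraries were stranded and built from 300 ng of total RNA after ribosomal RNA reduction, and ERCC spike-ins were added. The labels give the replicates different animal numbers and separate sample records but a shared donor record, so the spread between them may be technical in part or in whole. Whole heart mixes cell types, and fewer cells of a type cannot be told apart from less RNA per cell. Levels below are mean TPM ± SD with n = 2.

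Most snoRNAs guide chemical modification of other RNAs by base pairing. The C/D box family works with the methyltransferase fibrillarin and directs 2′-O-methylation of ribose, while the H/ACA box family works with the pseudouridine synthase dyskerin. A few, among them U3, U8, U22 and U17, are needed for cleavage of the ribosomal RNA precursor rather than for a modification. In mammals most are cut out of introns of host genes, many of which encode ribosomal proteins or translation factors, and U3 is an exception with transcription units of its own. Relatives in the Cajal body, called scaRNAs, modify the small nuclear RNAs of the spliceosome.

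Sequences of the members that carry the results come from the GENCODE M21 transcripts of the C57BL/6J reference (GRCm38, mm10), and the animals also carried CAST/EiJ alleles. All are printed 5′ to 3′ on the strand of the gene. The H/ACA box type ends with the letters ACA close to its end, which are in capitals below. The first set holds Snora73a and Snora73b, the 2 mouse U17 RNAs, beside Gm26448, an annotated gene without a family symbol that was 88.3% identical to Snora73a. Snora73a lies at chr4:132352775-132352979 (minus strand), Snora73b at chr4:132352322-132352526 (minus strand) and Gm26448 at chr9:120129351-120129553 (plus strand).
Snora73a: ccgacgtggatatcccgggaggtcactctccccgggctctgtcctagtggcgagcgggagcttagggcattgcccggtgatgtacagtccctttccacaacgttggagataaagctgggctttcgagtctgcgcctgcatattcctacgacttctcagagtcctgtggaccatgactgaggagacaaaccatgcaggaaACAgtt
Snora73b: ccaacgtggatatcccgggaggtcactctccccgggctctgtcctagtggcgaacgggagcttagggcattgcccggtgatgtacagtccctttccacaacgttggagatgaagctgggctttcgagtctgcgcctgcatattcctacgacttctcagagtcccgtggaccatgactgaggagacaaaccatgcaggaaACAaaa
Gm26448: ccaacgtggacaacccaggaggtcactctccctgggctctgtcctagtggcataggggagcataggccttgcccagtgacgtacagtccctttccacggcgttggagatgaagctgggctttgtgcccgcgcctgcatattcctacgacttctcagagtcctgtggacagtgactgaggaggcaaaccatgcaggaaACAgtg

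The second set shows 3 near-copies in different host genes, whose levels differed widely, and Gm26447, the unnamed member with the highest level. Gm22988 lies in Eif4a1 (chr11:69669635-69669778, minus strand), Gm25291 in Sec24a (chr11:51737779-51737922, minus strand) and Gm24727 in Gsr (chr8:33691801-33691944, plus strand). Gm26447 lies in Eif4a2 (chr16:23111301-23111429, plus strand). Gm22988 was 97.2% identical to Gm25291, with 4 edits between them, and 93.8% identical to Gm24727, with 9 edits.
Gm22988: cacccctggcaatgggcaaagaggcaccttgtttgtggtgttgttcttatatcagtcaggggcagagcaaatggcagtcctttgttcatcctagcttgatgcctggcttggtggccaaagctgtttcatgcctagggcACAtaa
Gm25291: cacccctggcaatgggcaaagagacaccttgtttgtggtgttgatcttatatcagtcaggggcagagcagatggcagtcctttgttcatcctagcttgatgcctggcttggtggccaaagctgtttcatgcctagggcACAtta
Gm24727: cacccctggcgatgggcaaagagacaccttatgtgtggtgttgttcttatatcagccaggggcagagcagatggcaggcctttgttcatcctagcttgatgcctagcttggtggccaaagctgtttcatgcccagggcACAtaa
Gm26447: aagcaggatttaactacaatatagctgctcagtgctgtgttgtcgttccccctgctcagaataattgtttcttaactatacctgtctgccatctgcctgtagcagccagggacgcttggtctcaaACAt

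C/D box RNAs carry box C, with the core TGATGA, and box D, CTGA, near the end, both in capitals in the third set. Rnu3b1 and Rnu3a are U3 genes, and Rnu3b1 is annotated in 2 overlapping rows of 216 and 215 nt that differ by 1 base at the end. The 216 nt row spans chr11:87443237-87443452 (plus strand), and Rnu3a spans chr10:40258467-40258680 (plus strand). Snord15a (chr7:99482785-99482932, minus strand) and Snord15b (chr7:99479563-99479707, minus strand) share the host Rps3 and were 64.2% identical. Snord22 (U22, chr19:8725866-8725991, plus strand) lies in Snhg1, and Snord118 (U8, chr11:69073427-69073561, plus strand) lies in no host. Gm25835 (chr11:69668852-69668995, minus strand) has no family symbol but holds both boxes. In Snord22 the exact letters TGATGA were not found, so only its box D is marked.
Rnu3b1, 216 nt row: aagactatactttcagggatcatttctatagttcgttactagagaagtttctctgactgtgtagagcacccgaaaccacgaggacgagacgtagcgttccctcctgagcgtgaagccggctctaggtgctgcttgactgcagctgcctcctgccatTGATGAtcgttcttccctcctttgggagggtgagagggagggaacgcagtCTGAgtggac
Rnu3b1, 215 nt row: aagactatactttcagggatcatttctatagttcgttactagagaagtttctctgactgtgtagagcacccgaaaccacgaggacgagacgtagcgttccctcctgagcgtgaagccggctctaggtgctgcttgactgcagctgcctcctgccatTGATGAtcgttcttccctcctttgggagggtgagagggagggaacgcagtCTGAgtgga
Rnu3a: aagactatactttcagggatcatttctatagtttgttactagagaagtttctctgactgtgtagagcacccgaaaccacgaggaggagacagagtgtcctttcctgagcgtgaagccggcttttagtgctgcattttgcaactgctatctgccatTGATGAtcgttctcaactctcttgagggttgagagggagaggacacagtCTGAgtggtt
Snord15a: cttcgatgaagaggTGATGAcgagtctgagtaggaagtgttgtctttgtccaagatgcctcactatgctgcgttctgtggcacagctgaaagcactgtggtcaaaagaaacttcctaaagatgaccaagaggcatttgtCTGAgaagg
Snord15b: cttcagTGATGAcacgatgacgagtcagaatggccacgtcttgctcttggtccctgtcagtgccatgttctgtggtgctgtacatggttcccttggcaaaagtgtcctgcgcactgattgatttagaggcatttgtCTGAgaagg
Snord22: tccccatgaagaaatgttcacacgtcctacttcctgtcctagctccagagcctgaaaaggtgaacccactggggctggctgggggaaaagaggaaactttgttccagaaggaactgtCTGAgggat
Snord118: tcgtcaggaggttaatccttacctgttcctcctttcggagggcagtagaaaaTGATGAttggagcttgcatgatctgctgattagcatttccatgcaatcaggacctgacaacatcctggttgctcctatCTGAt
Gm25835: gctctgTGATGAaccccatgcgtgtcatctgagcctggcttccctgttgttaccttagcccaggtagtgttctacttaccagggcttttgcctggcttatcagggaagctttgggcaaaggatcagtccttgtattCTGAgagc

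Expected counts, which are estimated reads, summed over mouse genes to 31512596 (replicate 1) and 35744013 (replicate 2). The 6 heart markers Myl2, Myh6, Actc1, Tnnt2, Pln and Nppa were all expressed, at a mean of 1143 to 8469 TPM. Of 6 markers of other tissue, only Hbb-bs and Alb were at or above 1 TPM in both libraries. Hbb-bs, a red cell globin, was at 471 TPM in replicate 1 and 1886 in replicate 2. Ucp1, a brown fat marker, had 0 counts in replicate 1 and 396 in replicate 2, and Nppa was at 1620 and 665 TPM. The part of these differences in the snoRNA values was not tested.

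No snoRNA gene of at most 99 nt received a read. In the deposited gene tables the effective length, by which TPM divides, was the annotated length less 99 nt. All 458 such snoRNA genes had 0 counts in both libraries, and so did all 1940 genes of other types in that length range. Of the 108 C/D box genes by symbol, 87 were at most 99 nt, against 0 of the 42 H/ACA genes. Most annotated C/D genes therefore gave no measurement. For a gene with an effective length of 0, a value of 0 TPM does not bear on whether the RNA was present.

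Above 99 nt the share of genes that were expressed was higher in each longer range. It was 1.54% of 130 genes from 100 to 119 nt, 7.12% of 800 genes from 120 to 139 nt, 17.3% of 81 genes from 140 to 179 nt, and 50.0% of 38 genes from 180 nt up. The median expected count of the members was 1.25, 10, 31 and 621.5 in these 4 ranges. Across the 92 members, length and mean expected count had a Spearman correlation of 0.68, a description over genes that share 2 libraries. Effective lengths of the members ran from 15 to 226 nt with a median of 36. A single read on an RNA with an effective length of 30 nt came to 1.37 TPM in replicate 1 and 1.16 in replicate 2, but on Scarna10 to 0.182 and 0.154.

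**Figure D1:**
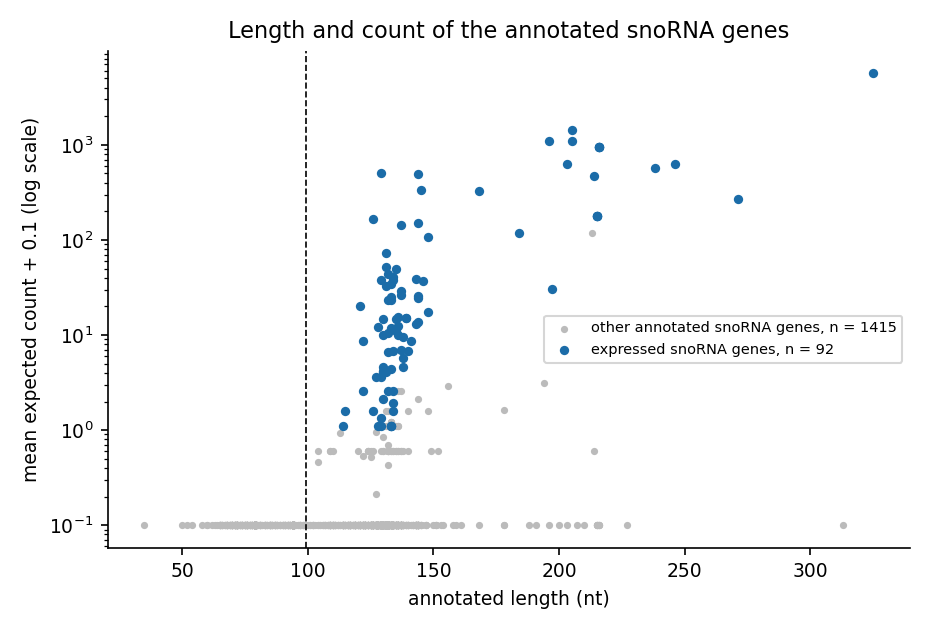
Annotated length (x axis, nt) against mean expected count over both libraries plus 0.1 (y axis, log scale) for the 1507 annotated snoRNA genes, with the 92 expressed genes in blue, the others in grey and a dashed line at the upper end of the range without counts. Every gene left of the line sits at 0 counts, and the highest counts belong to members of about 200 nt and more.

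A second deposited quantification of the same libraries gave no read to any snoRNA. All 1507 genes stood at 0 estimated counts in both libraries there. In that table the effective length of transcripts over 1000 nt was shorter than the annotated length by a median of 342 nt in replicate 1 and 352 nt in replicate 2. The longest snoRNA, of 325 nt, still had an effective length of 73.7 nt and 80.7 nt there. Of the genes of other types from 180 to 400 nt, 370 of 5727 had counts there in either library, against 991 in the first tables. The cause of the disagreement was not tested, and the levels below rest on the first tables alone.

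By symbol the 92 members were 24 H/ACA genes (Snora), 14 C/D genes (9 U3 rows and 5 Snord genes), 1 Cajal body RNA (Scarna10) and 53 genes without a family symbol. They made up 57.1% of the annotated H/ACA genes and 66.7% of the 21 C/D genes of at least 100 nt, but 5.38% of the 985 unnamed genes of that length. Of the 21 C/D genes, 10 were U3 rows, and 9 of these were members. The median level was 151 TPM over the C/D members, 12.8 over the H/ACA members and 13.7 over the unnamed members. The H/ACA median was 0.0845 times the C/D median. Overlapping or identical U3 rows weigh on the C/D share and median. Since short C/D genes could also not be measured, neither value compares the families as wholes.

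The members held 7437 TPM in replicate 1 and 7891 in replicate 2, which was 0.773 ± 0.0318% of all mouse-gene TPM. As a share of expected counts they held 16988 and 22436, or 0.0539% (exact binomial 95% interval 0.0531 to 0.0547) and 0.0628% (0.0620 to 0.0636). With counts divided by the full length instead of the effective length, the share was 0.416 ± 0.0277%. Few genes carried most of the members' TPM, as the 10 highest members held 56.3% in replicate 1 and 61.1% in replicate 2. These 10 include the 216 nt rows of all Rnu3b genes, which have identical sequence and equal values. The share therefore also depends on how U3 counts were divided among overlapping rows.

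Scarna10 had the highest level. It is the U85 RNA, which carries both box types and guides modification of U5 small nuclear RNA, and it lies in Ncapd2 (chr6:125186359-125186683, minus strand). It stood at 858 TPM in replicate 1 and 1011 in replicate 2, or 934 ± 109, from 4709 and 6585 expected counts. Snora73b came next by counts, with 1347 and 1536. Scarna10 also changed least with the divisor, at 790 on the full-length scale. It overlaps an annotated exon of another gene, and its counts were not whole numbers. In replicate 1 its TPM lay just above the upper bound of the interval given in the authors' tables (809.7 to 857.6), the only member value outside its interval.

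The U17 RNAs, which act in early cleavage of the ribosomal RNA precursor, were among the 3 leading H/ACA members. Snora73b was at 523 TPM in replicate 1 and 503 in replicate 2 (513 ± 14.1). Snora73a was at 414 and 371 TPM (393 ± 30.4). The pair lies within Snhg3 and Rcc1 and was 96.6% identical, with 7 edits, so reads that match both were divided between them by an estimate. Gm26448, the relative in Rpsa printed with them above, was at 213 and 235 TPM (224 ± 15.8), from whole counts of 538 and 705. The remaining leading H/ACA member was Snora74a, which guides pseudouridylation of ribosomal RNA, at 411 and 430 TPM. Its mean of 421 TPM lay between those of Snora73b and Snora73a. The other 21 H/ACA members were below 100 TPM, and 16 of the 24 were below 20.

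Of the unnamed members, 7 had a mean of at least 100 TPM. Gm26447 in Eif4a2 was the highest, at 673 TPM in replicate 1 and 596 in replicate 2 (634 ± 54.3), from 490 and 515 counts. Its place in the ranking depends on the divisor, since on the full-length scale it was at 179, below Snora73b at 322. Gm22988 in Eif4a1 followed at 427 and 394 TPM (411 ± 23.3). Gm26448 and Gm23262 had mean levels of 224 and 176 TPM. Gm23262 lies in Eif4g2, which like Eif4a1 and Eif4a2 is a gene of a translation initiation factor. Gm26448 lies in Rpsa, a ribosomal protein gene. The share of such hosts over all unnamed members is not given here. Gm26447, Gm22988 and Gm23262 overlap an exon of another gene on the same strand and had counts that were not whole, so some of their reads may come from that gene, with hosts at 96.7, 221 and 449 TPM. Gm26448 has no such overlap. Gm24119 in Slc25a3 was at 132 and 186 TPM, Gm22486 in Ptcd3 at 129 and 155, and Gm25835 in Eif4a1 at 129 and 123.

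**Figure D2:**
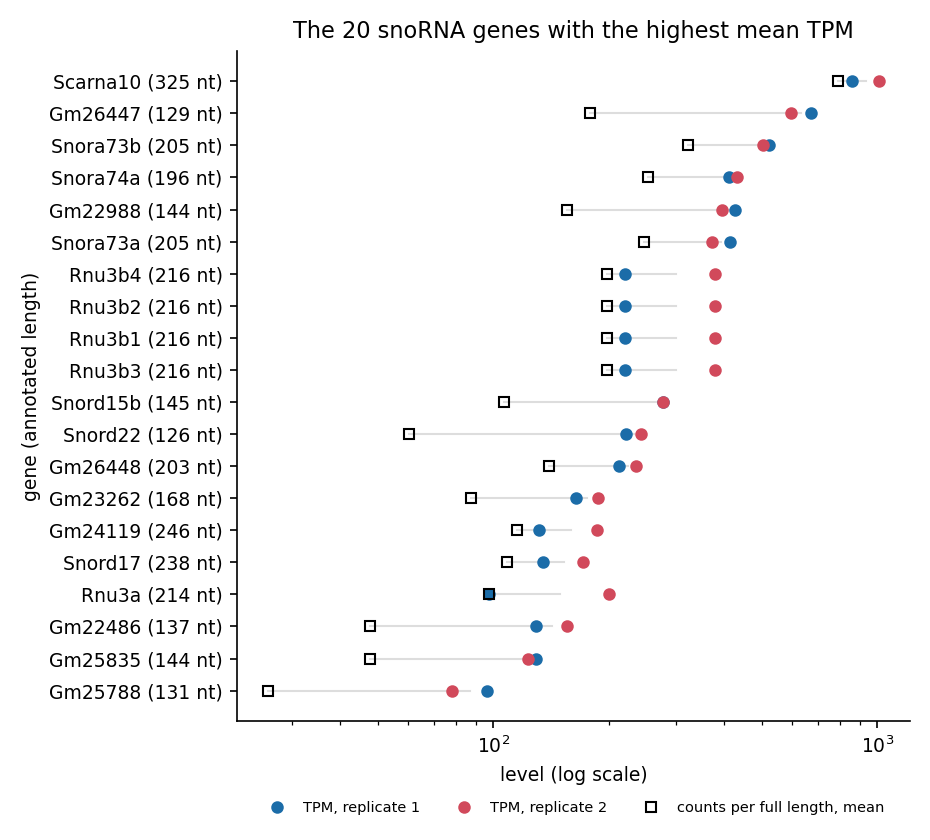
Levels of the 20 members with the highest mean TPM (x axis, log scale), with TPM in each library as filled points and the mean of counts per full length, on the same total scale as TPM, as open squares. Every square lies left of the mean TPM, by little for Scarna10 (790 against 934) and by far for the 129 nt Gm26447 (179 against 634).

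Among C/D members other than U3, Snord15b, a guide for methylation of ribosomal RNA, was at 277 TPM in replicate 1 and 276 in replicate 2. Snord15a, from the same host, was at 90.7 and 75.1 TPM. Snord22, which acts in processing of the small-subunit ribosomal RNA, was at 221 and 243 TPM. Snord17 in Snx5, a methylation guide, was at 134 and 171 TPM. Snord118, or U8, acts in maturation of the large-subunit RNAs and stood far lower, at 5.72 and 16.4 TPM from 5 and 17 counts. These 5 values put U8 alone in the range of a few reads.

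The level of U3 was spread over several annotated rows. The Rnu3b1, Rnu3b2, Rnu3b3 and Rnu3b4 genes lie within Tex14 on chromosome 11, and each is annotated in a 216 nt row and a nested 215 nt row, so they account for 8 of the 92 members. Every 216 nt row had 626 expected counts in replicate 1 and 1277 in replicate 2. Every 215 nt row had 325 and 34.6. The 4 loci have identical sequence, and the tables give them equal values. The longer row was higher and the shorter row lower in replicate 2, and their sum per locus was 951.5 and 1312 counts.

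Rnu3a gave a like split. Its 214 nt row, a member, had 273 counts in replicate 1 and 665 in replicate 2, and its 213 nt row, not a member, had 234 and 0, for sums of 507 and 665. Over all 10 U3 rows the counts were 4313 and 5913 and the summed level was 1525 and 1758 TPM. That summed level was above the TPM of any other member, but it joins several loci. By counts the 10 rows together were below Scarna10, which had 4709 and 6585. On the TMM scale (library sizes adjusted for composition), replicate 2 was 1.27-fold above replicate 1 over the 10 rows. By contrast the 215 nt rows were at 0.0999 times and the 216 nt rows at 1.89 times. The deposited TPM interval of the 216 nt Rnu3b1 row ran from 0.00386 to 440 in replicate 1.

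**Figure D3:**
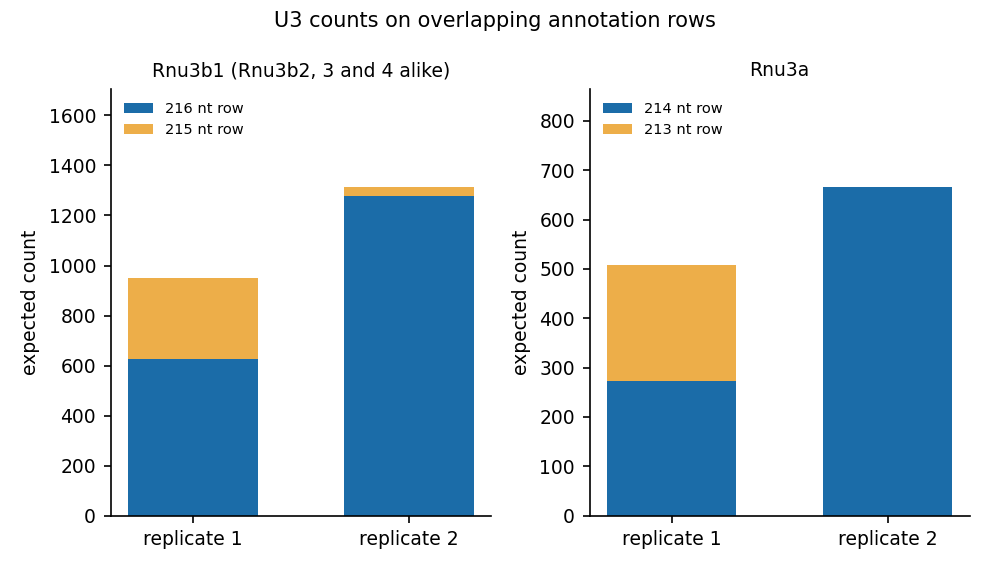
Expected counts (y axis) of the overlapping annotation rows of Rnu3b1 and of Rnu3a in each library, stacked by row. The split between the rows differs between libraries, while the whole bars stand at 951.5 and 1312 for Rnu3b1 and at 507 and 665 for Rnu3a.

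Levels of the members in the 2 libraries had a Spearman correlation of 0.90 over 92 genes, a description that the choice of genes in both libraries favours. With at least 10 expected counts in each library, 56 members could be compared by log2 ratio of replicate 2 over replicate 1 after TMM scaling. Of these, 1 was more than 2-fold higher in replicate 2, against 0.824% of the 16374 genes of all types with such counts. A further 4 were more than 2-fold lower, against 2.3% of all genes, which makes 5 of 56 either way against 3.12%. The 5 were Rnu3a and the 4 short Rnu3b rows. Without the U3 rows, 0 of 47 members were over 2-fold apart, and their median absolute log2 ratio was 0.20 against 0.19 over all genes compared.

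The median log2 ratio was 0.12 over all 92 members and 0.14 over the 56, against 0.00 over all genes with at least 10 counts. By the ratio of TPM with a pseudocount of 0.1 the median over the 92 was 0.0012. The median over all genes on that scale is not given here, so this value cannot be set against the 0.00. Of the 56, 37 were higher in replicate 2 and 19 lower, against 8165 and 8209 of all genes compared. Outside U3, the largest ratio among members with a mean of at least 100 counts was that of Gm24119, at 0.63 from 471 and 789 counts. The lowest was that of Gm23547 in Phb2, at -0.16 from 272 and 263 counts. With 2 libraries of 1 group no test across samples was possible, and these values describe the libraries only.

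Ratios of members with few reads were less certain. Snora5c, an H/ACA gene in Tbrg4, had 1.92 counts in replicate 1 and 22.7 in replicate 2, a ratio of 10.6 with an exact binomial 95% interval of 2.63 to 93.2. It overlaps an exon of another gene on the same strand and is 98.5% identical to Gm23346, a gene just under the threshold. Its split of reads is therefore uncertain. For Snord118 the ratio was 3.15 (1.11 to 10.9). Gm24620 in Kif13a, with 7 counts and 1, had a ratio of 0.132 (0.00293 to 1.03), and Gm25107 in Lrch2, with 1 and 6, had 5.55 (0.674 to 255), so both intervals held 1. Snora9 in Snhg15 had 7.58 and 1.09 counts and a ratio of 0.116 (0.00261 to 0.863). The intervals cover counting error of rounded counts only. Snora5c, Gm24620, Gm25107 and Snora9 were named after their values were seen.

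**Figure D4:**
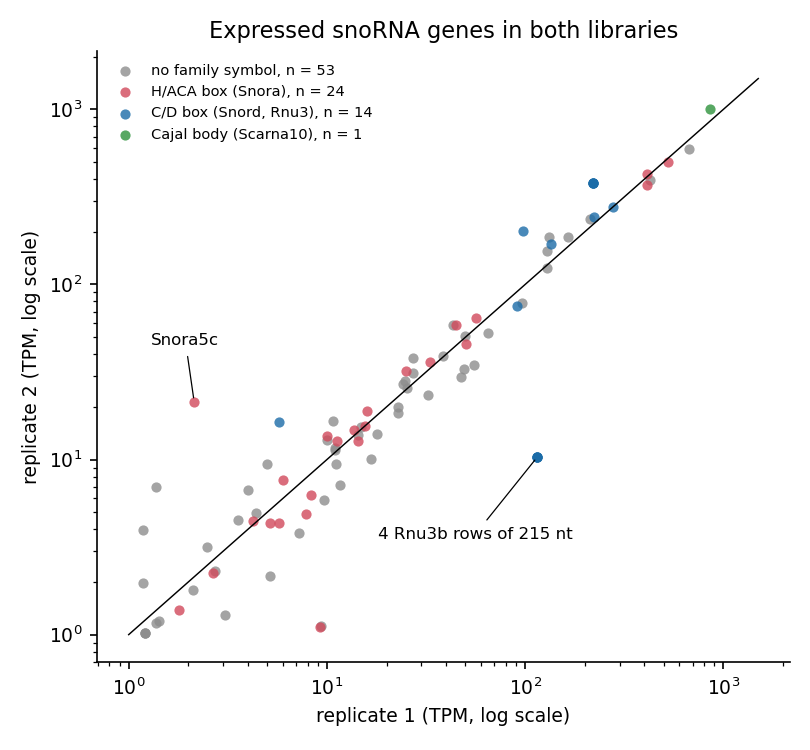
TPM in replicate 1 (x axis) against replicate 2 (y axis), both on log scales, for the 92 members coloured by class, with the line of equality. The 4 short Rnu3b rows lie on 1 point at 115 and 10.4 TPM, far below the line, and Snora5c lies above it at 2.14 and 21.3.

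Near the threshold the set rested on single reads. Of the 92 members, 36 had fewer than 10 counts in a library, 14 had at most 3 in both, and 6 had exactly 1 in both. For 30 members the deposited interval of TPM reached below 1 in a library. Just inside the threshold, Gm24451, Gm24607 and Gm26265 each had 1 count in each library, at 1.21 and 1.02 TPM, followed by Gm26016 (1.37 and 1.16) and Gm24907 (1.42 and 1.20). Just outside it, Gm25945 had the same 1 count in each but, being 135 nt long rather than 133, stood at 1.14 and 0.96 TPM. Gm22579, Gm24539 and Gm24095 were at 1.57 and 0.95, and Gm23346 was at 1.11 and 0.94. In all, 51 genes reached 1 TPM in only 1 library, and the members held 98.4% and 99.8% of the expected counts on snoRNA genes.

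Most members lay inside a host gene. Of the 92, 85 (92.4%) were fully contained in a gene of another type on the same strand, against 199 of the 957 other snoRNA genes of at least 100 nt (20.8%). The host, taken as the one with the highest level where there were several, was itself at a mean of at least 1 TPM for 76 members (82.6%) and for 126 of the others (13.2%). Ribosomal protein genes were the host of 12 of the 92 members and of 10 of the 957 others. Genes named Snhg held 9 members and 6 of the others. For 35 members an exon of another gene overlapped on the same strand, so reads there can come from either gene, and 29 of these had counts that were not whole. Of the other 11 members without whole counts, 10 had an overlapping snoRNA row, and the last was Snora73b. Reads of unspliced host RNA were not separated from snoRNA reads for any hosted member. Their part in the shares of hosted members and expressed hosts was not tested.

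Over all 85 hosted members, the level of the host did not order the level of the snoRNA. The Spearman correlation of mean TPM with the host was -0.11, a description over genes that share hosts and libraries. The 85 include the 8 Rnu3b rows, whose host Tex14 had the lowest level of all hosts. A correlation without these rows is not given here, so the sign of the value may rest on them. Snora31, an H/ACA guide in Tpt1, was at 17.5 TPM in a host at 1362. Snora7a in Rpl32 was at 6.34 TPM in a host at 421. In the other direction Snora74a stood at 421 TPM in the non-coding AC121821.1 at 6.47, and 36 members were above their host by TPM. That count includes the 8 Rnu3b rows and depends on the divisor. Per full length the members were at 0.160 to 0.845 times their TPM, and the count on that scale is not given here. The 8 Rnu3b rows lie in Tex14, which was at 0.155 TPM. The only other hosted member with a host under 1 TPM was Snora78 in Snhg9, at 15.6 against 0.825.

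A shared host did not mean a shared level. Counting Tex14 with its U3 rows, 12 hosts held more than 1 member, 31 members in all, and the higher member of each host was the higher in both libraries in 12 of 12. The higher member was picked by the mean of these same libraries, which favours that result. In Tex14 the order is only that of nested rows of the same loci. In Eif4a1, Gm22988 was at 411 ± 23.3 TPM, Gm25835 at 126 ± 3.95 and Gm24029 at 11.2 ± 0.325, a 36.8-fold range. In Eif4a2, Gm26447 was 44.8-fold above Gm24616 (634 against 14.1 TPM). Snora74a was 54.3-fold above Mir1949, an annotated snoRNA gene with a microRNA symbol in the same host. Snord17 was 16.3-fold above Gm26165 in Snx5. With counts per full length these last 2 gaps were 90.3-fold and 33.7-fold. The gap was small in Taf1d, where Gm25791 was 1.92-fold above Gm22620, in Pabpc4 at 2.25-fold, and in Snhg3 at 1.31-fold for the U17 pair. Within Rps3, Snord15b was 3.33-fold above Snord15a. The highest and lowest members in Eif4a1, Eif4a2 and AC121821.1 all overlap an exon of another gene on the same strand.

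**Figure D5:**
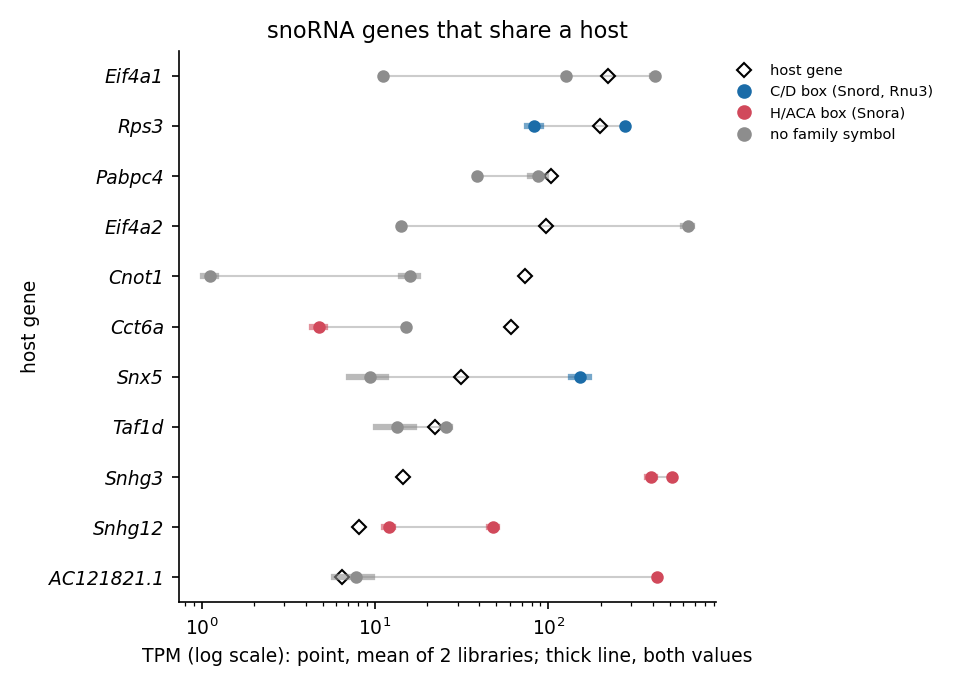
Mean TPM (x axis, log scale) of members that share a host, 1 host per line, with thick lines joining the values of both libraries and an open diamond at the level of the host gene. The Tex14 rows of U3 are left out. Members of Eif4a1, Eif4a2 and AC121821.1 spread over more than 30-fold, and the spread between libraries is smaller than the distance between members on each line.

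The near-copies printed above lie in different hosts and also differed in level. Gm22988 stood 19.1-fold above Gm25291 and 19.8-fold above Gm24727, although few bases separate them. Gm25291 in Sec24a had 25 and 26 counts, and Gm24727 in Gsr had 25 and 24, both at 22.9 TPM in replicate 1. Their hosts were at 10.4 and 19.2 TPM, against 221 for Eif4a1. Over the 92 members, 49 were more than 90% identical to another annotated snoRNA gene and 8 had an identical copy, the Rnu3b rows, so a level of such a gene can depend on how shared reads were divided.

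The box letters were searched on the sense strand. ACA in the last 10 bases was found in 68 of the 92 members (73.9%), in 23 of 24 with an H/ACA symbol and in 45 of 53 without a family symbol (84.9%). It was found in 62.2% of the 957 other snoRNA genes of at least 100 nt and in 14.2% of 135 nt windows from the middle of 9083 lincRNA transcripts. TGATGA together with CTGA in the last 20 bases, without such an ACA, marked 16 members (17.4%), 1.78% of the other genes and 1.21% of the windows. The 16 were 13 of the 14 C/D members, 9 of them U3 rows, and Scarna10, Gm25835 and Gm22486. Gm23547 held all of these letters. The H box pattern ANANNA is too short to separate anything here, as it was in 97.8% of the members and 90.03% of the windows. A match is a description of letters and not evidence of a working box.

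Of the lists of snoRNAs by role, the pre-rRNA cleavage list matched 20 annotated rows, of which 13 were members. Beside the U3, U17, U8 and U22 genes described above it holds Snord13 with 0 counts and 1, and Snora62 with 1 and 0. The 4 Snord14 genes, among the rest, were at most 99 nt. Snord3a and Snora63 were not matched by symbol, which does not show that these RNAs were absent under another symbol. For the imprinted-locus list, no symbol that begins with Snord113, Snord114 or Snord115 was matched. Its 19 matched genes, named Snord64, Snord107 and Snord116, were all at most 99 nt, and so was Snord60 of the sterol-linked list. None of these could be measured, while Snora73a and Snora73b of the sterol-linked list were among the 6 highest members.

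The proteins that make snoRNAs work were all expressed at moderate levels. The C/D core proteins were Nop58 at 40.9 ± 0.940 TPM, Nop56 at 29.2 ± 2.23, the methyltransferase Fbl at 28.0 ± 0.262 and Snu13 at 26.9 ± 0.368. The H/ACA core proteins were Nop10 at 26.5 ± 0.552, Nhp2 at 17.6 ± 0.339, Gar1 at 16.4 ± 3.38 and the pseudouridine synthase Dkc1 at 14.1 ± 0.948. The 4 C/D core proteins had higher mean levels than the 4 H/ACA core proteins, but Snu13 and Nop10 differed by less than the SD of Nop10. Of these 8 genes, 0 were more than 2-fold apart between the libraries, against 3.12% of all genes compared.

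All 12 assembly factors were expressed, from the dyskerin chaperone Shq1 at 2.13 ± 0.212 TPM to Pih1d1 of the R2TP chaperone complex at 25.3 ± 4.02, with a median of 6.73. Ruvbl2 and Ruvbl1, ATPases of that complex, were at 16.5 ± 0.0283 and 11.3 ± 1.499. Rpap3 (6.87), Znhit6 (6.74), Taf9 (6.72), Znhit3 (5.43) and Nufip1 (2.58) lay below them. Naf1, an H/ACA assembly factor, was at 3.70 ± 0.948, and the Cajal body proteins Nolc1 and Coil were at 13.2 ± 0.290 and 3.67 ± 0.163. None of the 12 was over 2-fold apart between the libraries, against 3.12% of all genes compared.

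All 9 processing enzymes matched by symbol were expressed as well. Exosc10, a nuclear exosome nuclease that trims snoRNA ends, was the highest at 27.7 ± 0.106 TPM, followed by the exonucleases Xrn2 (20.4 ± 0.615), Xrn1 (11.9 ± 0.00707) and Dis3 (11.1 ± 0.502). Tent4b, a poly(A) polymerase, was at 13.2 TPM in replicate 1 and 8.8 in replicate 2, and the deadenylase Parn at 8.57 ± 0.460. Tgs1, which makes the trimethylated cap of U3 and U8, was at 7.37 ± 0.474, and the exosome subunit Exosc3 at 7.18 ± 0.375. Dbr1, which opens the intron lariats from which hosted snoRNAs are cut, was the lowest at 4.42 ± 0.148. The symbol Papd5 had no match, which does not show that a gene was missing, since a gene can be listed under another symbol. Of the 9 enzymes, 0 were over 2-fold apart between the libraries, against 3.12% of all genes compared.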

How the data were processed

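Total RNA of newborn mouse heart was measured in 2 libraries. Per the file headers, the authors deposited expected counts and TPM per gene, with bounds of a TPM interval and effective lengths as further score columns, in columns named as RSEM writes them. The authors also deposited estimated counts and TPM per transcript from another quantification, with kallisto's column names, and these were summed per gene. Notes deposited beside the files give mm10 and GENCODE M21, while aligner and versions are not given in the sources used here. Library sizes leave out spike-ins and the numbered rows without a gene name, the latter holding 6.31e-06% and 1.11e-05% of the expected counts.

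The members and gene lists were chosen with earlier results of these data known. The result of 1 gene list is not reported here. Genes were classed by symbol, and all 55536 gene identifiers were found in the annotation. Overlap, host and sequence came from GENCODE M21, and a host was a same-strand gene of another type that contained the whole member, the one with the highest mean TPM where there were several. Expected counts were rounded to whole numbers and scaled with TMM in edgeR 4.0.16 (R 4.3.3) with a prior count of 2, and DESeq2 1.42.0 gave alternative size factors. Neither was used for a test, since the design has 1 group of 2. The ratio step was tested on simulated data with known changes. Levels per full length are expected counts divided by annotated length and rescaled to the same total as TPM. Identity is 100% less the edit distance over the longer sequence. SciPy 1.17.1 gave the exact intervals, pandas 2.3.3 the joins and matplotlib 3.10.9 the figures, under Python 3.11.15. PCR copies are not independent molecules, so intervals cover counting error only.

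Genes named were the 15 members with the highest mean TPM and the 10 with the highest mean count, list members, the 6 largest log2 ratios each way at a mean of at least 100 counts, the 5 lowest members and the 5 genes just under the threshold, hosts of named members and the protein lists. As all members were at 0 in the second quantification, the 6 that differed most between quantifications are not set apart. Members of shared hosts, near-copies and printed sequences outside the rule were chosen after their values were seen. Box letters were to be compared with the window downstream of each gene, but genome sequence was not used here, and the middle of lincRNA transcripts took its place.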

Additional observations from a re-analysis of the deposited data

How the results depend on the processing

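The number of expressed snoRNA genes, 92, was 101 at a TPM of 0.5, 79 at 2, 58 at 10 and 88 with overlapping rows taken as 1 locus. It was 56 with at least 10 expected counts in both libraries, whether or not the TPM threshold was kept, and 0 in the second quantification. Without replicate 1 or replicate 2 it was 111 or 124. The share of mouse-gene TPM, 0.773%, was 0.0583% of expected counts, 0.416% with counts per full length, 1.34% of nuclear genes without Rn7s1, Rn7s2, Rn7sk, Rpph1 and Rmrp, and 0% in the second quantification. It was 0.751% and 0.796% in the single libraries. The H/ACA median over the C/D median, 0.0845, was 0.0518 per full length and 0.0470 by expected counts, and 0.0765 to 0.0995 by library. The median log2 ratio of the members, 0.12, fell to 0.0012 and 0.0011 for the ratio of TPM, and ran from 0.13 to 0.23 in the other 5 alternatives. The TPM values have no median over all genes beside them, so they do not settle whether the members were shifted. The 5 members over 2-fold apart stayed 5 under DESeq2, spike-in and TPM scaling and at a mean of at least 100 counts, became 10 with no filter on counts, and 0 with overlapping rows summed. All 92 members had an effective length of at least 1 nt and 82 one of at least 30 nt. The second quantification gives no value for the ratios, as it lists every member at 0. Summing overlapping rows, requiring counts beside TPM and the 30 nt minimum were chosen after seeing the data. No paired analysis was possible because there is 1 group. Few reads limit 36 members, those under 10 counts in a library, and genes of at most 99 nt are not measured at all.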
